A study of Mus musculus with 30 samples.

Results

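The genes described here were 7 copies of the *Tmem181* and *Dynlt1* families that lie downstream of *Arid1b* on mouse chromosome 17: *Tmem181a*, *Tmem181b-ps*, *Tmem181c-ps*, *Dynlt1a*, *Dynlt1b*, *Dynlt1c* and *Dynlt1f*. They were 7 of the 19737 genes listed in the deposited table and were chosen by name and position, with their levels in *Arid1b*+/- (HT) and wildtype (WT) brains at P10 and after vehicle already known. Their differences between HT and WT in those groups are therefore given as a description, without a test. All 7 passed the filter on low values, a mean of at least 10, in each of the 8 comparisons.

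RNA from whole brains of male C57BL/6N mice was sequenced in 30 libraries, 5 in each of 6 groups. HT mice carry 1 *Arid1b* allele that was disrupted at exon 5 by CRISPR genome editing, and they came, with their WT littermates, from HT fathers and WT C57BL/6N mothers. The P10 HT and P10 WT groups were untreated and 10 days old. The other groups were 120 days old (P120): HT-Flx and WT-Flx mice had been nursed by dams drinking fluoxetine, a serotonin reuptake inhibitor, at 0.1 mg/ml, in water that held saccharin at 0.2%, from P3 to P21, and HT-Veh and WT-Veh mice by dams drinking the saccharin vehicle over the same days. The line rests on a single edited allele that lies on the same chromosome as the 7 copies, so an action of the allele on them and any other sequence inherited with it cannot be told apart. Whole brain mixes many cell types, and fewer cells of a type and less RNA per cell cannot be told apart.

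Dynlt1, also called Tctex-1, is a light chain of cytoplasmic dynein, the motor that carries cargo along microtubules toward their minus ends. In brain, dynein serves retrograde axonal transport and the migration of young neurons. Tmem181 is a multi-pass membrane protein of the GOST family, whose better known members act in the Golgi and in trafficking between membranes. *Arid1b* encodes a DNA-binding subunit of the BAF chromatin remodelling complex.

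In GRCm38, *Arid1b* runs from 4994332 to 5347656 on the plus strand of chromosome 17. Along the same chromosome follow *Tmem181a* (6256860 to 6308314, plus strand), *Dynlt1a* (6306340 to 6317500, minus), *Dynlt1b* (6430112 to 6436296, plus), *Tmem181b-ps* (6438524 to 6467022, minus), *Dynlt1c* (6601671 to 6609774, plus), *Tmem181c-ps* (6613753 to 6639790, minus) and *Dynlt1f* (6646602 to 6655900, minus). The nearest copy thus starts 909 kb beyond the end of *Arid1b* and the farthest 1299 kb beyond it. The 4 *Dynlt1* genes and *Tmem181a* are annotated as protein-coding, *Tmem181b-ps* as a transcribed unprocessed pseudogene and *Tmem181c-ps* as an unprocessed pseudogene. *Tmem181a* and *Dynlt1a* face each other on opposite strands and share 580 exonic bases at their ends, and whether the libraries kept strand is not given in the sources used here, so reads from that stretch may be uncertain between both genes.

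The copies are close to identical in sequence, which sets how far the level of any single copy can be read. The coding sequence of each *Dynlt1* gene is 342 bases long. *Dynlt1a*, *Dynlt1c* and *Dynlt1f* are identical over all of it, and *Dynlt1b* differs from them at 1 base, A21C counted from the A of the start codon with the base of *Dynlt1b* first. The first 100 coding bases are shown because they hold this single difference, which stands in capitals.
Dynlt1b: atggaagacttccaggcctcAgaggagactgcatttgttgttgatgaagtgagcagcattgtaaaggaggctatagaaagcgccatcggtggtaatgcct
Dynlt1a, Dynlt1c and Dynlt1f: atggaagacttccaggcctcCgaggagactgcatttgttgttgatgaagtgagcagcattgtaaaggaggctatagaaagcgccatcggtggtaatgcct

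The *Tmem181* copies differ slightly more. Over the coding sequence of *Tmem181a*, *Tmem181b-ps* matched at 1406 of 1413 aligned bases (99.5%) and *Tmem181c-ps* at 1329 of 1338 (99.3%), and the pseudogene transcripts matched each other at 1329 of 1336 (99.5%). Bases 9 to 108 of the *Tmem181a* coding sequence and the same stretch of both pseudogenes are shown, as the window in which these copies can be told from each other most readily. The 3 positions at which they differ stand in capitals.
Tmem181a: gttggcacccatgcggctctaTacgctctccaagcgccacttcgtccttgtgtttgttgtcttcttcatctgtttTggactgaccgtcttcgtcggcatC
Tmem181b-ps: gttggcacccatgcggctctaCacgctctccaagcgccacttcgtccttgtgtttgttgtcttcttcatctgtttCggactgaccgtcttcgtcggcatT
Tmem181c-ps: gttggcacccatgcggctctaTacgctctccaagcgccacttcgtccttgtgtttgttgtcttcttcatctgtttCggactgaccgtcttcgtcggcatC
Counted from the first base shown and with the base of *Tmem181a* first, *Tmem181b-ps* carries T22C, T76C and C100T, and *Tmem181c-ps* carries T76C.

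Reads were 100 bases long, so every 100-base window of the annotated transcripts was compared with all other transcripts. The share of windows found in no other gene was 75.7% for *Tmem181a*, 66.7% for *Tmem181b-ps* and 48.3% for *Tmem181c-ps*. It was 45.3% for *Dynlt1a*, 22.0% for *Dynlt1f*, 19.3% for *Dynlt1c* and 18.0% for *Dynlt1b*. The *Tmem181* copies could therefore be told apart over a larger part of their length than *Dynlt1b*, *Dynlt1c* and *Dynlt1f*. Of the *Dynlt1b* windows, 67.1% also occurred in *Dynlt1a* and 33.0% in genes outside the 7, of which *Dynlt1-ps1* was the only one. Salmon divides reads among transcripts that match equally well, so the level of each copy is uncertain and the sum over a family less so.

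The deposited values are normalized counts and are not whole numbers, so read depth is unknown. Their sums per library were 31578614 to 32445810 at P10, 33200684 to 41801037 in the vehicle groups, 32484635 to 33588499 in WT-Flx and 37083545 to 41522113 in HT-Flx. The slope of a library's log2 deviation from its age's mean over 10 percentage points of transcript GC content ran from −0.19 to 0.049 at P10, from −0.41 to 0.45 in HT-Veh, from −0.28 to 0.20 in WT-Veh, from 0.31 to 0.73 in the 5 HT-Flx libraries and from −0.43 to −0.33 in the 5 WT-Flx libraries. Genotype and this slope cannot be told apart in the fluoxetine groups. Transcripts of the 7 copies have a GC content of 48.1% to 50.0%, and those of *Arid1b* 56.7%. All 10 brain markers were present, with summed levels of 189894 to 376355 per library.

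*Arid1b*, the targeted gene, was lower in HT libraries in each group, with 1 library on either side that did not match its label. At P10 the HT libraries had 2162, 2334, 2246, 2248 and 2180 normalized counts for replicates 1 to 5, and the WT libraries 3271, 3281, 3292, 3309 and 3164 (log2 difference −0.55, SE 0.036, limma adjusted p = 1.52e-05). In the fluoxetine groups HT-Flx had 2164, 2554, 2171, 2616 and 2356, and WT-Flx 3392, 3305, 3166, 2961 and 2963. The vehicle groups crossed over: HT-Veh had 2342, 3361, 1973, 2480 and 2227, and WT-Veh 3171, 2320, 3036, 3224 and 3229. Above every WT-Veh library stood HT-Veh replicate 2, so labelled, and the library labelled WT-Veh replicate 2 lay within the HT range. Both were kept under their labels, and results from the vehicle groups were also computed without the pair.

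*Tmem181b-ps* showed the clearest difference between genotypes at P10. Its normalized counts in replicates 1 to 5 were 6711, 7477, 7720, 7737 and 7932 in HT, against 4871, 5065, 5062, 5065 and 5086 in WT. Every HT library lay above every WT library, the means being 7515 ± 478 and 5030 ± 89.4 (SD, n = 5 each), a log2 difference of 0.58 (SE 0.045) or 1.49-fold. *Tmem181c-ps*, at a far lower level, had 318, 297, 264, 281 and 270 in HT, against 169, 173, 139, 164 and 169 in WT. Its groups did not overlap either (286 ± 21.8 and 163 ± 13.6, SD, n = 5), and the log2 difference was 0.81 (SE 0.085), or 1.75-fold. The protein-coding copy *Tmem181a* had 5881, 5793, 5693, 5926 and 5623 in HT, against 5074, 5239, 5042, 5174 and 5106 in WT. These groups were also apart (5783 ± 126 and 5127 ± 79.3, SD, n = 5), by 0.17 (SE 0.032) or 1.13-fold. Higher HT levels without overlap were found in 3 of the 7 copies and in 1.43% of all 17896 genes, but the copies were chosen on this contrast. Summed over the 3 *Tmem181* copies, HT libraries held 13585 ± 404 and WT libraries 10320 ± 143 normalized counts (SD, n = 5). Of the difference of 3265, *Tmem181b-ps* made up 76.1%, *Tmem181a* 20.1% and *Tmem181c-ps* 3.78%.

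Among the *Dynlt1* genes at P10, *Dynlt1b* stood higher in HT and the other 3 differed by less than their spread. *Dynlt1b* had 2711, 3677, 3406, 3807 and 3317 normalized counts in HT and 2570, 2488, 2633, 2726 and 2183 in WT. The lowest HT library lay just under the highest WT library and the other 4 lay above all of WT (3384 ± 425 and 2520 ± 208, SD, n = 5), a log2 difference of 0.42 (SE 0.085). For *Dynlt1a* the log2 difference was −0.09 (SE 0.083), for *Dynlt1c* −0.05 (SE 0.11) and for *Dynlt1f* −0.01 (SE 0.093), with overlapping groups in each. The share of *Dynlt1b* in the *Dynlt1* sum varied much less between libraries of a group than its level. This share was 59.1%, 60.9%, 59.9%, 59.7% and 59.9% in HT, against 52.2%, 52.1%, 52.2%, 51.8% and 51.7% in WT. HT and WT shares were well apart (59.9% ± 0.653 and 52.0% ± 0.235, SD, n = 5). The share of *Dynlt1a* was correspondingly lower in HT (13.7% ± 0.69) than in WT (17.0% ± 0.48), and so was that of *Dynlt1f* (22.4% ± 0.558 against 26.3% ± 0.958). A blood list of 5 globin and erythroid genes also separated these groups, with summed levels of 5258 to 8444 in HT and 10377 to 13112 in WT. The part of blood in the results was not tested. Lists for other tissues overlapped between the P10 genotypes, but their HT ranges lay lower. Choroid plexus summed to 6853 to 11929 in HT against 11132 to 15277 in WT, and meninges and vessels to 3339 to 4859 against 4620 to 15853. Olfactory epithelium summed to 1731 to 2371 against 2331 to 3012, and pituitary to 33.2 to 53.3 against 34.1 to 115. Their part in the results was not tested either. None of the genes on these lists was at 0 in all libraries of a group.

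**Figure D1:**
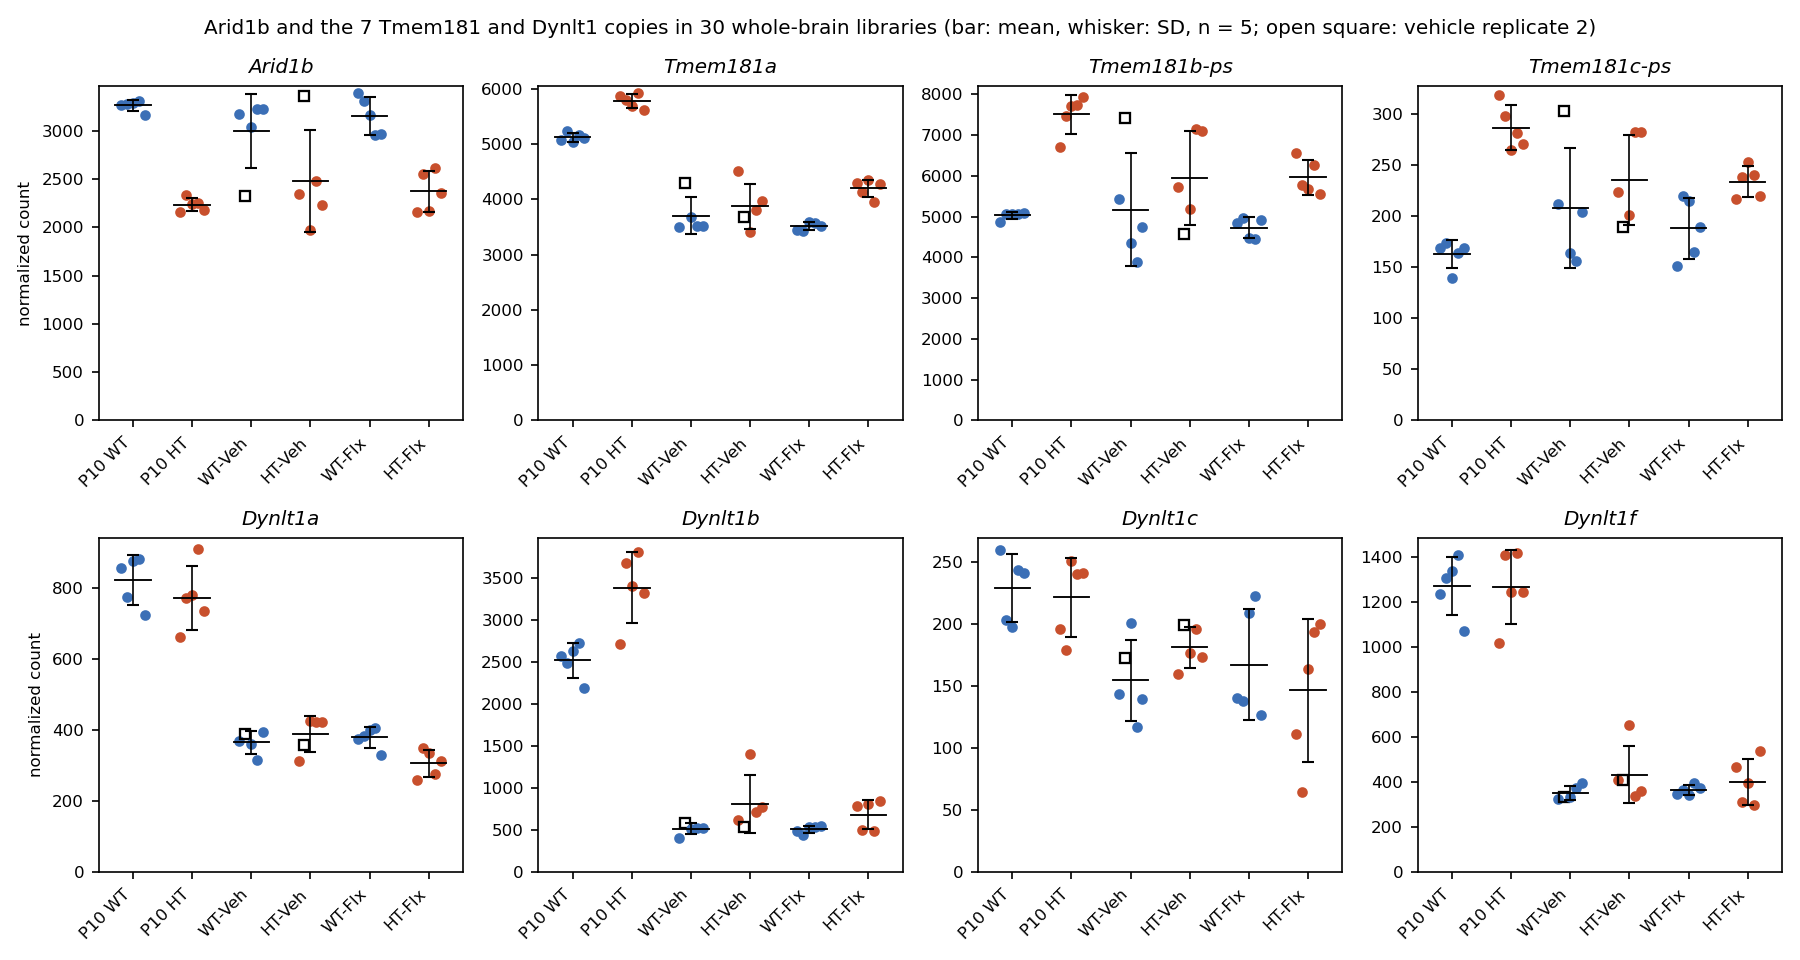
Normalized counts (linear axes from 0) of *Arid1b* and the 7 copies in each library of 6 groups. Filled circles are libraries (blue WT, red HT), open squares the vehicle libraries numbered 2, bars means and whiskers SD (n = 5); the *Tmem181* copies were higher in HT at P10, and *Dynlt1a*, *Dynlt1b* and *Dynlt1f* were far lower at P120 than at P10.

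In the vehicle groups at P120 the *Tmem181* pseudogenes crossed over in the same libraries as *Arid1b*. *Tmem181b-ps* had 5730, 4562, 5196, 7140 and 7107 normalized counts in HT-Veh, against 5432, 7417, 4359, 3895 and 4755 in WT-Veh. The library labelled WT-Veh replicate 2 was the highest of all 10, and the library labelled HT-Veh replicate 2 was the lowest of its group. *Tmem181c-ps* had 223, 189, 201, 282 and 282 in HT-Veh, against 211, 303, 164, 156 and 204 in WT-Veh, with replicate 2 again lowest in HT-Veh and highest in WT-Veh. *Tmem181a* had 4512, 3674, 3417, 3811 and 3981 in HT-Veh, against 3505, 4297, 3685, 3516 and 3525 in WT-Veh. Here WT-Veh replicate 2 was the highest WT value, but HT-Veh replicate 3 was below HT-Veh replicate 2. With 5 libraries a group the log2 differences between HT-Veh and WT-Veh were 0.22 (SE 0.18) for *Tmem181b-ps*, 0.20 (SE 0.20) for *Tmem181c-ps* and 0.06 (SE 0.11) for *Tmem181a*. Without both libraries numbered 2 they were 0.45 (SE 0.17), 0.42 (SE 0.19) and 0.14 (SE 0.14). Both pseudogenes and *Tmem181a* overlapped between the vehicle groups either way. With any single library left out the differences ran from 0.12 to 0.36, from 0.11 to 0.35 and from 0.0082 to 0.12.

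*Dynlt1b* had 619, 534, 1399, 710 and 776 normalized counts in HT-Veh, against 405, 584, 514, 528 and 527 in WT-Veh. Replicate 2 was once more the lowest of HT-Veh and the highest of WT-Veh. Without the pair every HT-Veh library lay above every WT-Veh library, as was the case for 0.529% of 17781 genes. Leaving out the pair removed these extremes, and the copies were chosen with this contrast known, so this share is no result about *Dynlt1b*. The log2 difference of *Dynlt1b* was 0.58 (SE 0.22) with all libraries and 0.76 (SE 0.24) without the pair. HT-Veh replicate 3 was far above the rest in *Dynlt1b* and in *Dynlt1f* (652, against 337 to 409 in the other 4), and without this library the log2 differences were 0.36 for *Dynlt1b* and 0.10 for *Dynlt1f*. For *Dynlt1a*, *Dynlt1c* and *Dynlt1f* the log2 differences were 0.08 (SE 0.13), 0.25 (SE 0.16) and 0.26 (SE 0.17) with all libraries and 0.13 (SE 0.16), 0.26 (SE 0.20) and 0.25 (SE 0.21) without the pair, and replicate 2 was neither the lowest of HT-Veh nor the highest of WT-Veh. Over all genes, limma called 0 of 17781 (0%) between HT-Veh and WT-Veh with 5 libraries a group, where 203 had an unadjusted p under 0.05, and 0 of 17784 without the pair.

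The ratio of *Tmem181b-ps* to *Arid1b* within a library put both observations on 1 scale, and a scaling factor common to a library cancels in it. A bias by GC content need not cancel, as *Tmem181b-ps* transcripts have 49.4% GC and those of *Arid1b* 56.7%. The ratio was 3.10, 3.20, 3.44, 3.44 and 3.64 in P10 HT, against 1.49, 1.54, 1.54, 1.53 and 1.61 in P10 WT. In the fluoxetine groups it was 3.03, 2.27, 2.61, 2.40 and 2.36 in HT-Flx, against 1.43, 1.50, 1.41, 1.50 and 1.66 in WT-Flx. In the vehicle groups it was 2.45, 1.36, 2.63, 2.88 and 3.19 in HT-Veh, against 1.71, 3.20, 1.44, 1.21 and 1.47 in WT-Veh. Without the vehicle libraries numbered 2, the ratio was 2.27 to 3.64 in 14 HT libraries and 1.21 to 1.71 in 14 WT libraries. Each of the 2 libraries fell inside the range of the other genotype. Both genes were taken with their genotype differences known, which go in opposite directions, so a separation by their ratio is no further result. *Arid1b* alone already separated the same libraries, at no more than 2616 normalized counts in HT and no less than 2961 in WT.

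**Figure D2:**
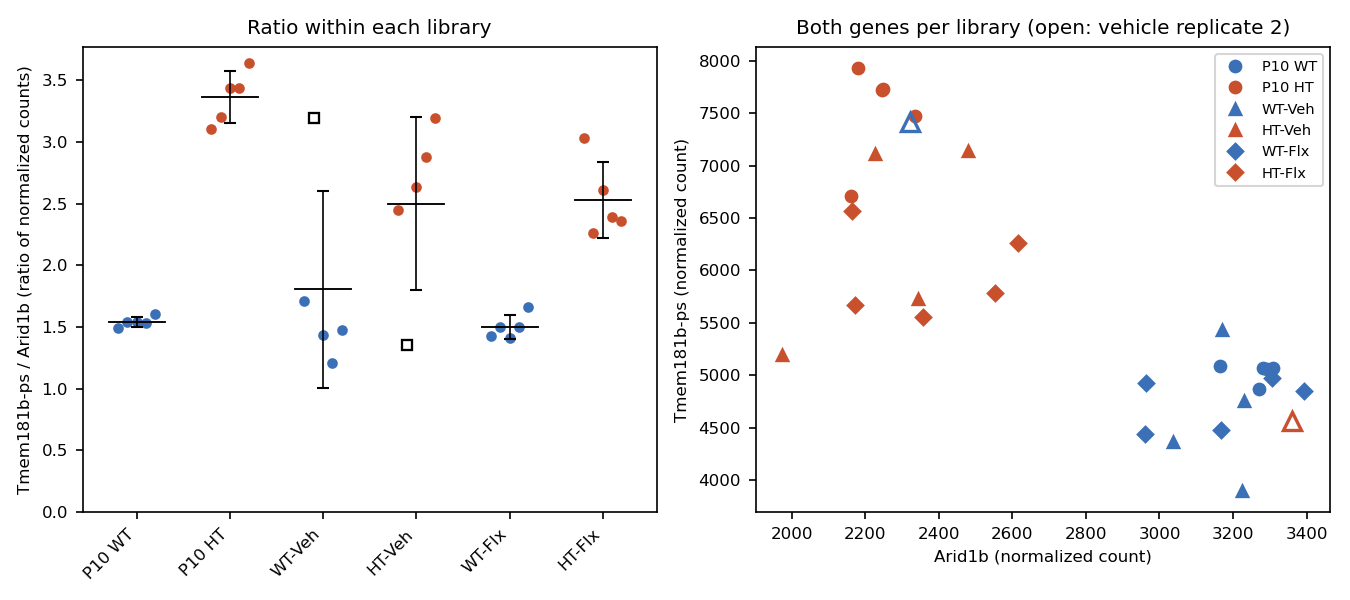
Left, ratio of *Tmem181b-ps* to *Arid1b* normalized counts in each library, with mean and SD (n = 5); right, both genes' normalized counts per library, on axes that do not start at 0. Open symbols are the vehicle libraries numbered 2, coloured on the right by their label (blue WT, red HT); HT and WT libraries form separate clouds except for these 2, which lie in the cloud of the other genotype.

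Around the copies, which were not tested at P10, no neighbouring gene was called between HT and WT at that age. Of the 28 other listed genes that start within 2 Mb of *Arid1b*, 23 passed the filter, and limma called 0 of them. With 0.0224% of all 17896 genes called, this count is no result about the neighbours. At an unadjusted p under 0.05 in limma there were 0 neighbours, against 2249 of all 17896 genes. The neighbours' log2 differences had a median size of 0.07, against 0.09 over all genes. Among genes that passed the filter, those flanking the cluster are *Tulp4*, a tubby-family protein before *Tmem181a* (log2 difference 0.02), and *Ezr* after *Dynlt1f* (0.07). *Ezr* encodes the membrane-to-actin linker ezrin. No other gene that passed the filter lay between the first and the last copy. The neighbours with the highest values, *Gm49721* (1.16) and *Gm1604a* (0.78), were named after their values were seen and had mean normalized counts of 14.9 and 15.4 in HT, against 8.72 and 9.21 in WT. Between HT-Veh and WT-Veh 0 of 21 neighbours were called (1 at an unadjusted p under 0.05), and 0 of 22 without the pair (again 1). Between HT-Flx and WT-Flx 9 of 21 (42.9%) were called, against 63.7% of all genes, with *Tmem242* (0.45), *Zdhhc14* (0.55), *Ezr* (0.37) and *Rps6ka2* (0.68) higher and *Gm21926* (−0.35), *Tiam2* (−0.71), *Serac1* (−0.72), *Tagap1* (−0.21) and *Rnaset2b* (−0.32) lower on the log2 scale.

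**Figure D3:**
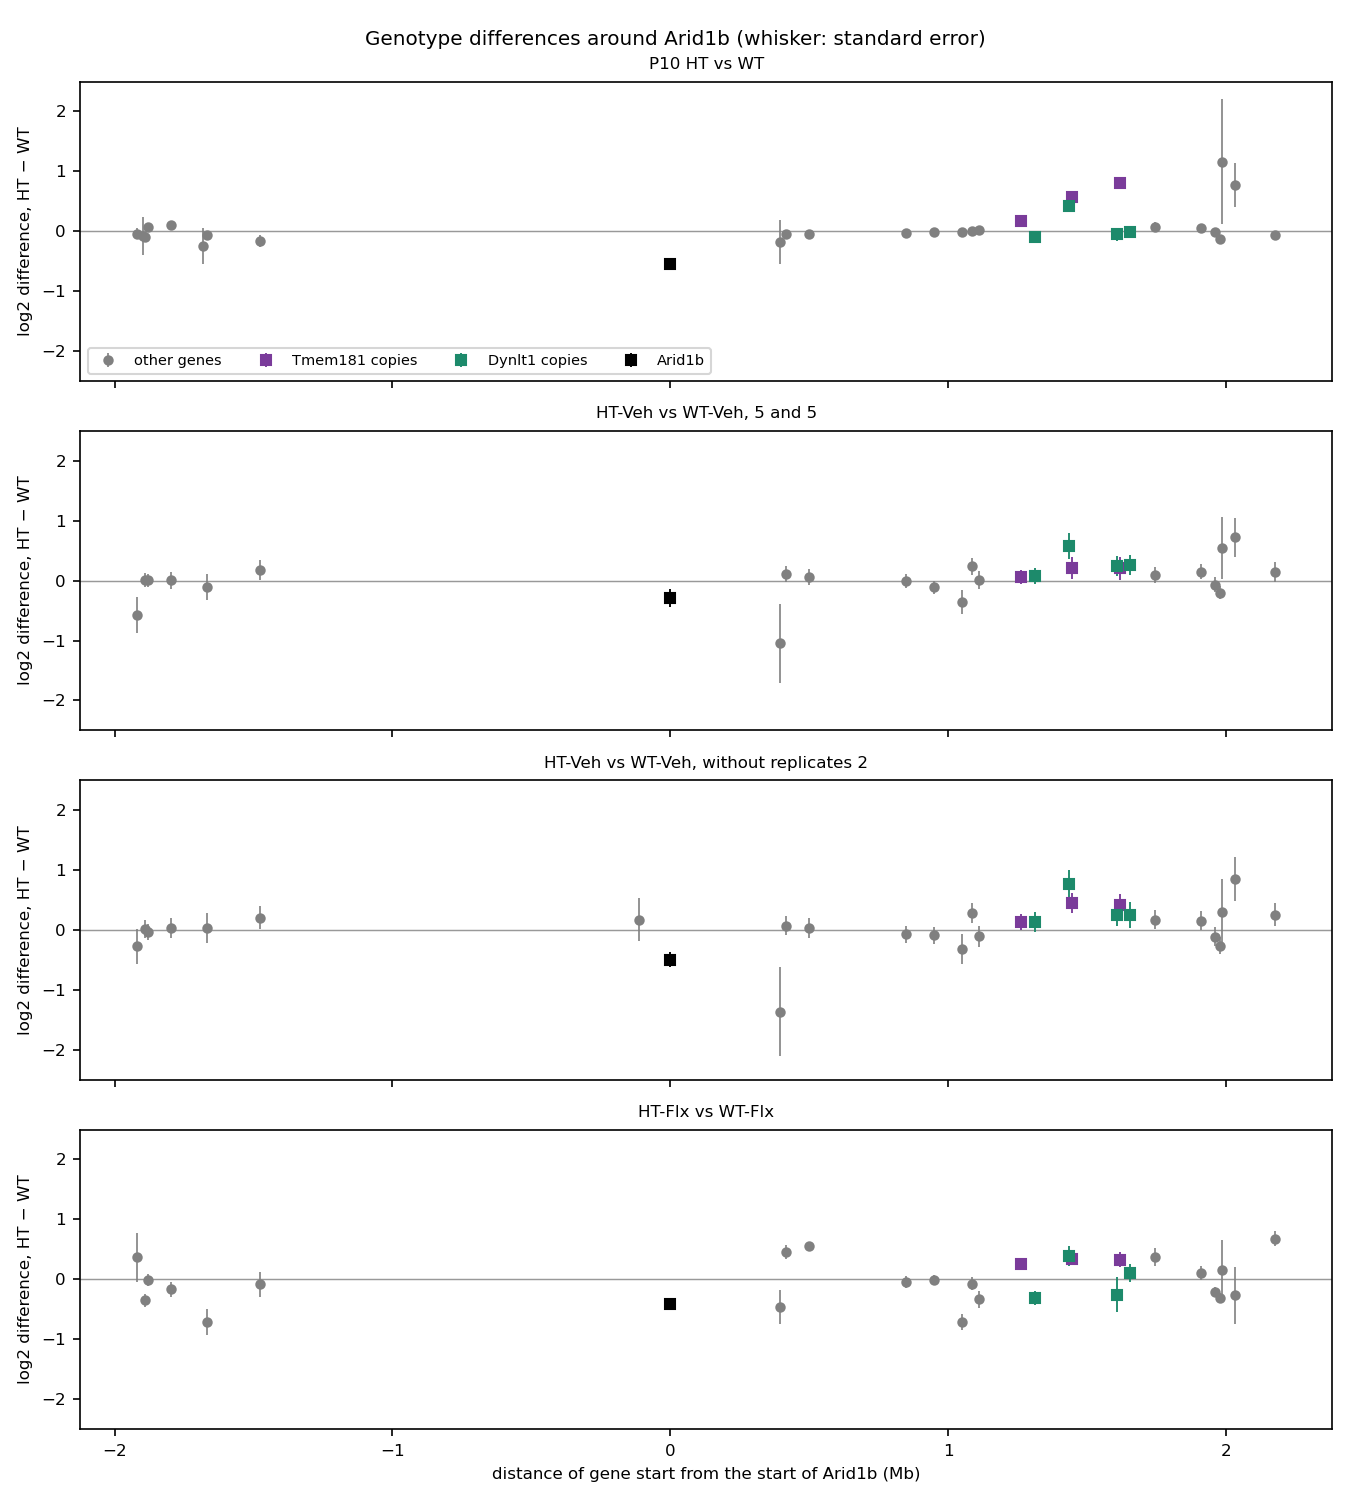
Log2 difference HT minus WT (whiskers: standard error) against the distance of each gene's start from the start of *Arid1b*, in 4 panels for P10, the vehicle groups with all libraries and without replicates 2, and the fluoxetine groups. At P10 the *Tmem181* copies and *Dynlt1b* lie above 0 while *Tulp4* and *Ezr* on either side lie at 0.02 and 0.07.

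The fluoxetine groups gave a comparison between genotypes in other mice. Earlier results of these data were known when the copies and comparisons were chosen, so the tests below are not fully independent of that choice. *Tmem181a* had 4291, 4135, 4344, 3958 and 4275 normalized counts in HT-Flx, against 3456, 3428, 3590, 3571 and 3524 in WT-Flx. Every HT-Flx library lay above every WT-Flx library, and the log2 difference was 0.26 (SE 0.063, limma adjusted p = 0.00346). *Tmem181b-ps* had 6564, 5784, 5675, 6266 and 5553 in HT-Flx, against 4850, 4970, 4472, 4441 and 4926 in WT-Flx. These groups did not overlap either, at a log2 difference of 0.33 (SE 0.075, limma adjusted p = 0.00185). *Tmem181c-ps* had 216, 238, 252, 240 and 220 in HT-Flx, against 151, 219, 215, 165 and 189 in WT-Flx. The groups overlapped through 1 WT-Flx library, and the log2 difference of 0.32 (SE 0.12, limma adjusted p = 0.036) no longer passed when any of 6 single libraries was left out (adjusted p = 0.0563 to 0.0973). The sum of the *Tmem181* copies was 10402 ± 404 in HT-Flx, against 8434 ± 205 in WT-Flx (SD, n = 5), a log2 difference of 0.30 (two-sided exact permutation test, p = 0.00794, the smallest that 5 against 5 allow).

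These calls have to be read against the whole table, since limma called 63.7% of 17799 genes between HT-Flx and WT-Flx, and 25.6% were higher in HT-Flx without overlap. Of the 7 copies, 3 were called higher, against 33.1% of all genes, and 1 lower, against 30.5%, so their count is no result about the copies. The median log2 difference of the copies was 0.26, against 0.02 over all genes, whose differences had a median size of 0.53. Of all genes, 38.3% were at least as high as *Tmem181a*, 34.7% as *Tmem181b-ps* and 35.1% as *Tmem181c-ps*. When GC content and transcript length were corrected for, a step added after the data had been seen, the log2 differences of *Tmem181a*, *Tmem181b-ps* and *Tmem181c-ps* were 0.65, 0.47 and 0.45 (limma adjusted p = 0.00105, 0.000959 and 0.00957). Lists of other tissues also moved with these groups: the genes *Dcn*, *Col1a1* and *Cldn5* of meninges and vessels summed to 2880 to 4257 in HT-Flx against 2036 to 2792 in WT-Flx, and *Omp* and *Adcy3* of olfactory epithelium to 3649 to 4387 and 2496 to 2879. Their part in the result was not tested.

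Among the *Dynlt1* genes, *Dynlt1a* was lower in HT-Flx, and the other 3 did not pass. *Dynlt1a* had 259, 348, 334, 277 and 312 normalized counts in HT-Flx, against 375, 385, 400, 406 and 329 in WT-Flx, with the highest HT-Flx library above the lowest WT-Flx library. The log2 difference was −0.31 (SE 0.11, limma adjusted p = 0.0244), but 0.0057 after the correction for GC content and length (adjusted p = 0.973), and the call was also lost without HT-Flx replicate 1 (adjusted p = 0.0501) and without WT-Flx replicate 3 or 4 (0.0591 and 0.0561). *Dynlt1b* had 786, 499, 803, 483 and 847 in HT-Flx, against 487, 444, 540, 534 and 543 in WT-Flx. Its HT-Flx libraries fell into 3 above all of WT-Flx and 2 within it, and the log2 difference was 0.39 (SE 0.17, limma adjusted p = 0.0573). Without HT-Flx replicate 2 or 4 it was 0.49 and 0.50 and passed (adjusted p = 0.0200 and 0.0119). *Dynlt1f* ranged from 299.7 to 540 in HT-Flx and from 342 to 394 in WT-Flx (log2 difference 0.11, adjusted p = 0.553; 0.47 and 0.039 after the correction). *Dynlt1c* ranged from 64.5 to 200.3 and from 127 to 222 (−0.26, adjusted p = 0.453). Summed over the 4 genes, HT-Flx held 1539 ± 292 and WT-Flx 1420 ± 98.5 (SD, n = 5), a log2 difference of 0.10 (two-sided exact permutation test, p = 0.476).

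Shares within each family were compared in the same libraries. *Dynlt1b* made up 48.4%, 40.8%, 47.4%, 38.6% and 44.6% of the *Dynlt1* sum in HT-Flx, against 36.2%, 33.4%, 36.2%, 34.3% and 39.5% in WT-Flx. As at P10 the HT mean was the higher (44.0% ± 4.23 and 35.9% ± 2.36, SD, n = 5), and 1 HT-Flx library lay below the highest WT-Flx library. The pseudogenes *Tmem181b-ps* and *Tmem181c-ps* together made up 59.6% ± 2.10 of the *Tmem181* sum in HT-Flx, against 58.3% ± 1.72 in WT-Flx (SD, n = 5), a difference of 1.27 percentage points within the spread (two-sided exact permutation test, p = 0.310). At P10 this share was 57.4% ± 1.83 in HT and 50.3% ± 0.424 in WT, without overlap.

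**Figure D4:**
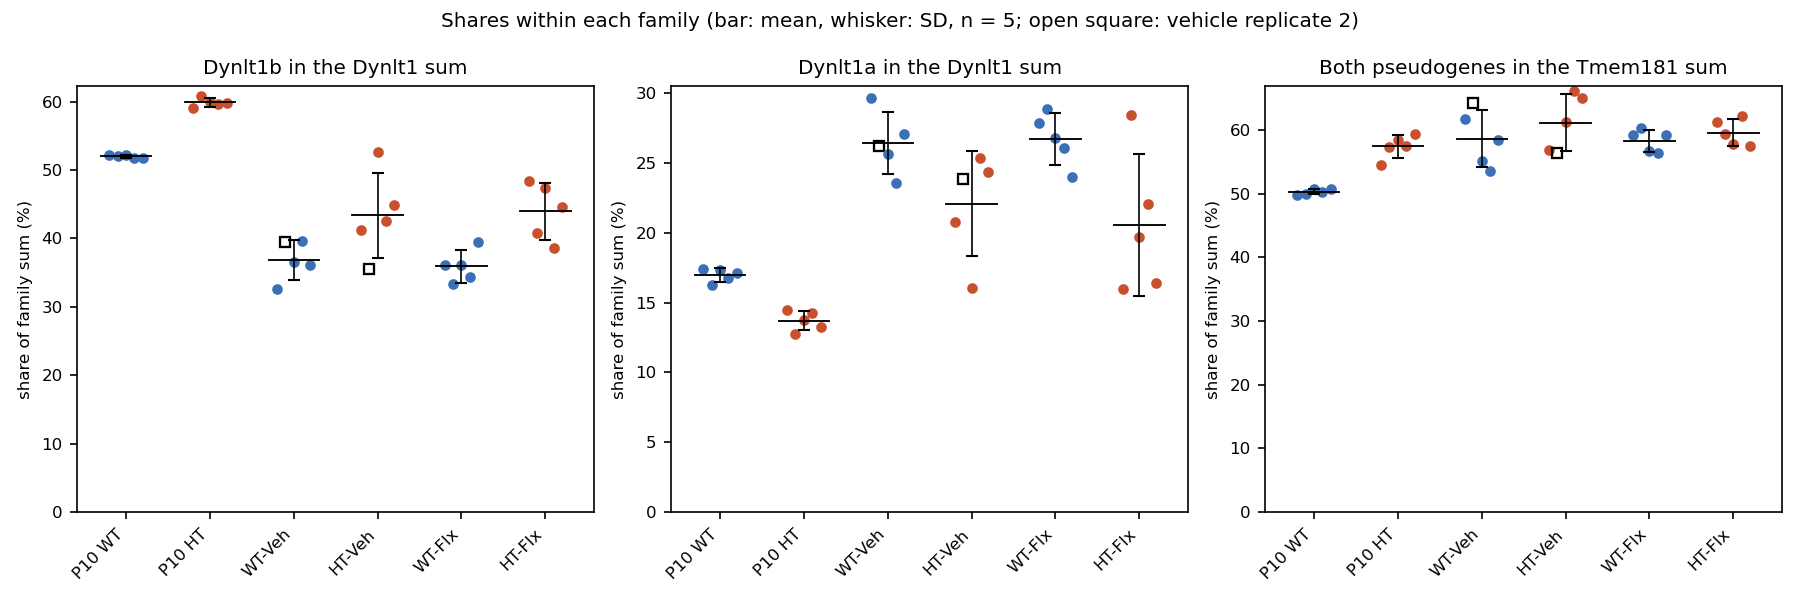
Share of the *Dynlt1* sum made up by *Dynlt1b* (left) and *Dynlt1a* (middle), and of the *Tmem181* sum made up by both pseudogenes (right), in percent for each library, with mean and SD (n = 5) and open squares for the vehicle libraries numbered 2. Shares of *Dynlt1b* were 59.1% to 60.9% in P10 HT and 51.7% to 52.2% in P10 WT, and spread more widely in every P120 group.

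Fluoxetine itself was compared with vehicle within each genotype, and none of the 7 copies passed in either. Between HT-Flx and HT-Veh limma called 0 of 17676 genes (0%, with 4082 at an unadjusted p under 0.05), and the copies' log2 differences ran from −0.41 for *Dynlt1c* (adjusted p = 0.302) to 0.12 for *Tmem181a* (adjusted p = 0.456). *Tmem181b-ps* differed by 0.02 (SE 0.14, adjusted p = 0.919), with 5968 ± 429 in HT-Flx and 5947 ± 1151 in HT-Veh (SD, n = 5). Without the vehicle libraries numbered 2 its difference was −0.07 (SE 0.14, adjusted p = 0.771). Between WT-Flx and WT-Veh limma called 0 of 17865 genes (0%, 4504 at an unadjusted p under 0.05), and the copies lay between −0.12 for *Tmem181c-ps* (adjusted p = 0.701) and 0.10 for *Dynlt1c* (adjusted p = 0.772). *Tmem181b-ps* differed by −0.09 (SE 0.14, adjusted p = 0.699), and by 0.05 (SE 0.094, adjusted p = 0.786) without the pair. In the interaction of genotype and fluoxetine 27.3% of 17796 genes were called but 0 of the 7 copies, of which *Dynlt1a* came nearest (−0.39, SE 0.16, adjusted p = 0.0682; −0.47 and 0.0207 without HT-Veh replicate 1). Without the pair, 0 of 17789 genes were called in the interaction.

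Between P10 and P120 *Dynlt1b*, *Dynlt1f* and *Dynlt1a* fell steeply in WT brain, and *Dynlt1c* by less. P10 mice were untreated, while the P120 mice compared with them had been nursed by dams on vehicle. Age, vehicle and any difference in handling or sequencing between the P10 and P120 libraries therefore cannot be told apart. *Dynlt1b* fell from 2520 ± 208 at P10 to 512 ± 65.4 in WT-Veh (SD, n = 5), a log2 difference of −2.30 (SE 0.097, limma adjusted p = 2.41e-09), and only 1.19% of 17927 genes were lower by as much or more. *Dynlt1f* fell from 1273 ± 129 to 352 ± 30.9, a log2 difference of −1.85 (SE 0.091, limma adjusted p = 6.79e-09), which 2.07% of genes matched or passed. *Dynlt1a* fell from 823 ± 69.9 to 365 ± 31.8, by −1.17 (SE 0.089, limma adjusted p = 2.21e-07), which 5.80% of genes matched or passed. The groups of these 3 genes did not overlap, as was the case for 23% of all genes in that direction. Without WT-Veh replicate 2 their log2 differences were −2.35, −1.83 and −1.19 (limma adjusted p = 1.43e-08, 6.16e-08 and 1.07e-06). *Dynlt1c*, the least expressed, had 198 to 260 at P10 and 117 to 201 in WT-Veh and fell by 0.58 on the log2 scale (SE 0.15, limma adjusted p = 0.00416), but after the correction for GC content and length the difference was −0.36 (adjusted p = 0.0540). Ages differ widely in these brains: limma called 29.4% of genes lower and 28.9% higher, so the size of a fall says more here than its call.

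*Tmem181a* fell moderately in WT, from 5127 ± 79.3 to 3705 ± 339 (SD, n = 5), a log2 difference of −0.47 (SE 0.065, limma adjusted p = 3.98e-05). That difference was −0.15 (adjusted p = 0.0864) after the correction for GC content and length. *Tmem181b-ps* was at 5030 ± 89.4 and 5172 ± 1376, a log2 difference of 0.0032 (SE 0.14, adjusted p = 0.986), and *Tmem181c-ps* at 163 ± 13.6 and 208 ± 58.4, a difference of 0.31 (SE 0.16, adjusted p = 0.116). Without the vehicle libraries numbered 2 the pseudogenes' differences were −0.14 (adjusted p = 0.193) and 0.17 (adjusted p = 0.285). The pseudogenes' share of the *Tmem181* sum was thus 50.3% ± 0.424 at P10 and 58.6% ± 4.45 in WT-Veh (57.2% ± 3.63, n = 4, without replicate 2).

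In HT brain *Dynlt1b*, *Dynlt1f* and *Dynlt1a* again fell most with age and in the same order, while the other copies ranked differently. *Dynlt1b* fell from 3384 ± 425 to 808 ± 343 (log2 difference −2.14, SE 0.21, limma adjusted p = 5.1e-06), and the log2 difference was −2.01 (adjusted p = 2.06e-05) without the pair. *Dynlt1f* fell by 1.58 (SE 0.17, limma adjusted p = 9.74e-06) and *Dynlt1a* by 0.99 (SE 0.13, limma adjusted p = 3.73e-05) on the log2 scale. Without the pair these were −1.57 and −0.97 (adjusted p = 5.8e-05 and 0.000194). *Dynlt1c* differed by −0.28 (SE 0.13, adjusted p = 0.0960). *Tmem181a* fell from 5783 ± 126 to 3879 ± 410, by 0.58 on the log2 scale (SE 0.098, limma adjusted p = 0.000342), or −0.13 (adjusted p = 0.335) after the correction. *Tmem181b-ps* went from 7515 ± 478 to 5947 ± 1151 (log2 difference −0.36, SE 0.13, limma adjusted p = 0.0383), a call that was lost without the pair (−0.27, adjusted p = 0.104) and without any of 4 P10 HT and 3 HT-Veh libraries singly (adjusted p = 0.0585 to 0.104). *Tmem181c-ps* differed by −0.30 (SE 0.14, adjusted p = 0.0916). In HT, limma called 25.3% of 17989 genes lower and 25.8% higher. The difference between genotypes in these changes was not tested.

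**Figure D5:**
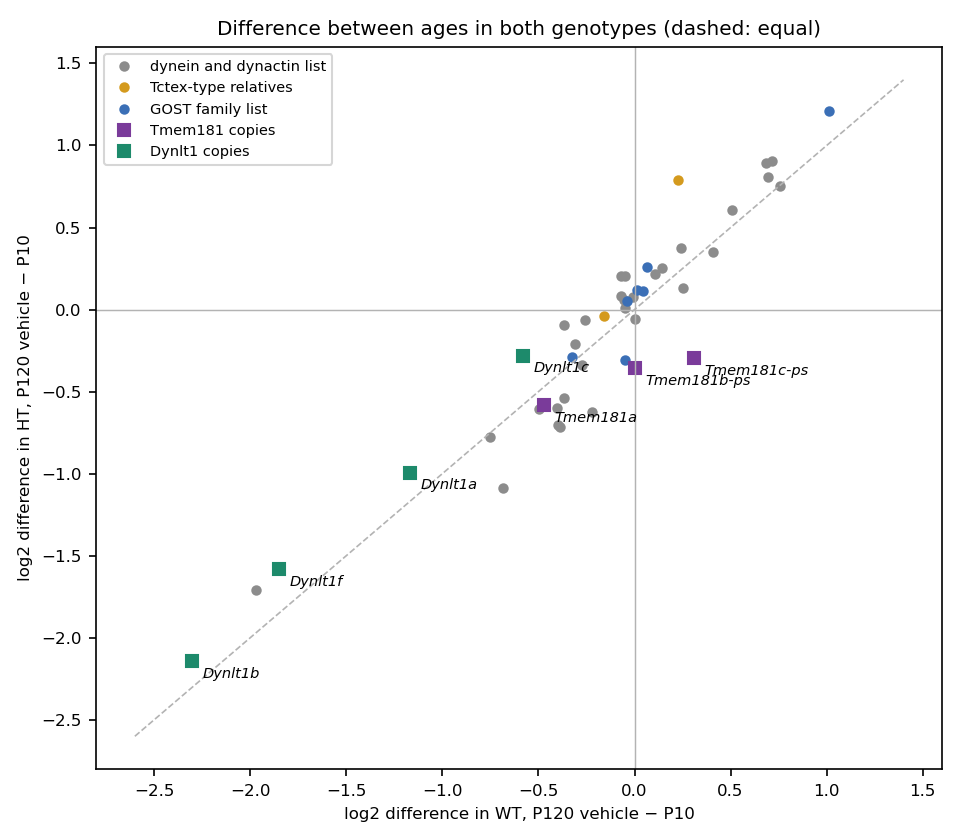
Log2 difference between P120 vehicle and P10 libraries in WT (horizontal) and HT (vertical) for the 7 copies (squares) and for the lists of dynein and dynactin genes, Tctex-type relatives and GOST family genes (circles; *Dynlt3*, on 2 lists, is drawn once). *Dynlt1b*, at −2.30 and −2.14, lies lowest of all genes shown on both axes.

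Other genes of the dynein motor moved both ways between these ages. Of 30 dynein and dynactin genes, 8 rose in WT, against 28.9% of all genes, and 12 fell, against 29.4%, with a median log2 difference of −0.06, against −0.01 over all genes. The heavy chain *Dync1h1* (0.76), the light chain *Dynll2* (0.68), the dynactin subunits *Dctn1* (0.69), *Dctn3* (0.24) and *Actr1b* (0.71), the light intermediate chain *Dync1li2* (0.25), the regulator *Ndel1* (0.51) and the adaptor *Bicd2* (0.41) rose. The intermediate chain *Dync1i2* (−0.50), the light intermediate chain *Dync1li1* (−0.27), the light chain *Dynlrb1* (−0.26), the dynactin parts *Dctn4* (−0.37), *Dctn5* (−0.31), *Actr10* (−0.37), *Capza1* (−0.75) and *Capza2* (−0.40), the regulator *Pafah1b1* (−0.40), also known as Lis1, and the adaptors *Bicd1* (−0.68), *Hook3* (−0.39) and *Spdl1* (−1.97) fell. *Spdl1*, the spindle adaptor of dividing cells, was the only one on the list to fall by more than *Dynlt1f* did. In HT, 7 rose and 9 fell, against 25.8% and 25.3% of all genes. *Dynlt3*, the nearest relative of *Dynlt1* among the motor's light chains, differed by −0.07 (SE 0.17, adjusted p = 0.746) in WT and 0.20 (adjusted p = 0.530) in HT.

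Of 5 Tctex-type relatives 4 were listed and 3 tested, and 0 passed between the ages in either genotype. In the GOST family of *Tmem181*, *Gpr108* rose in WT (1.01) and in HT (1.21), *Tmem145* fell in WT (−0.32), and the other 5 of 7 did not pass in WT. By genotype, 0 genes of these lists were called at P10, where 0.0224% of all genes were, and 0 between the vehicle groups, where 0% were. Between HT-Flx and WT-Flx 11 of 30 dynein and dynactin genes were called higher and 11 lower, *Tctex1d4* was called higher and *Tctex1d2* and *Dynlt3* lower, and 4 GOST genes were called higher and 3 lower, against the background of 63.7%. The called genes of the dynein list ran from −1.84 for *Hook1*, a dynein adaptor, to 0.91 for *Dctn1*.

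Across the 30 libraries, after each age's mean was taken away, the gene whose log2 level followed that of *Tmem181b-ps* most closely was *Tmem181c-ps* (Pearson r = 0.88), and that of *Tmem181a* ranked next among the copies (r = 0.70). *Dynlt1b* followed it less closely (0.45), and *Dynlt1a* (−0.11), *Dynlt1c* (−0.04) and *Dynlt1f* (−0.04) hardly at all. *Arid1b* had the lowest coefficient of all genes (r = −0.80). These are descriptions over libraries that share their groups, and *Arid1b* and the copies were chosen on a genotype difference, which alone sets a correlation of this sign. Of the 100-base windows of *Tmem181c-ps*, 49.8% also occurred in *Tmem181b-ps*, and the part of shared reads in their correlation was not tested. Among 17210 other genes the highest coefficients belonged to *Ccdc88c* (0.69), *Gm29100* (0.64), *Sema4a* (0.62), *Ajap1* (0.62) and *Ankrd33b* (0.61), and the lowest to *Serpind1* (−0.67), *Hbb-bs* (−0.67), *Pla2g16* (−0.63), *Zfp773* (−0.62) and *Cyp4v3* (−0.62). None of these 10 lies on chromosome 17.

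Levels can be set beside each other between genes only per length of transcript. Per kilobase of its longest annotated transcript, *Dynlt1b* stood highest in P10 WT (3268 normalized counts), followed by *Tmem181b-ps* (2073), *Tmem181a* (904), *Dynlt1f* (359), *Dynlt1a* (232), *Tmem181c-ps* (117) and *Dynlt1c* (70.5). In WT-Veh *Tmem181b-ps* stood first (2132), ahead of *Dynlt1b* (664) and *Tmem181a* (654), which did not differ beyond their spread. Per kilobase of the shortest transcript, P10 WT values were 3560 for *Tmem181b-ps*, 3380 for *Tmem181a* and 3268 for *Dynlt1b*, so the order of these 3 rests on which transcript is taken. In normalized counts, without regard to length, *Tmem181b-ps*, annotated as a pseudogene, held 48.7% ± 0.52 of the *Tmem181* sum in P10 WT and 55.3% ± 2.04 in P10 HT (SD, n = 5).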

How the data were processed

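The authors prepared poly-A RNA with a TruSeq mRNA kit (whether it kept strand is not given in the sources used here), sequenced paired reads on a NovaSeq, quantified GRCm38 transcripts with Salmon 1.1.0, took gene totals through tximport and scaled these in DESeq2 1.30.1. The deposited values are a normalized signal, not whole read counts, so read depth is unknown, reads could not be recovered and no count test was used. A single table held all 30 libraries. Of 19737 identifiers, 19722 were matched to symbols and positions in GENCODE M21 (GRCm38), from whose transcripts the printed sequences were read. Mice, not reads, are the replicates. Treatment reached the pups through dams, and whether mice of a group shared a dam is not given in the sources used here.

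Values were analysed as log2(value + 1) in genes with a mean of at least 10 over the libraries compared, with limma 3.58.1 in R 4.3.3 (linear model, intensity trend, Benjamini-Hochberg adjustment over all genes tested, threshold 0.05), in 8 comparisons. A fold change on this scale understates that of low genes. Family sums and shares between HT-Flx and WT-Flx were tested with two-sided exact permutation tests over 126 splits (scipy 1.17.1). Transcripts were aligned with Biopython 1.88. On simulated data with 200 genes changed by 1 on the log2 scale, limma recovered 72% between HT-Flx and WT-Flx and 75% between ages in WT. Recovery was 90% at P10, 66.5% between the vehicle groups, 72% between ages in HT and 43% in the interaction. For fluoxetine against vehicle it was 63.5% in HT and 84.5% in WT. The simulated libraries held no slope over GC content, and smaller changes were not simulated.

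Members, lists and comparisons were chosen with earlier results of these data known. Named genes were the 7 copies and *Arid1b*, neighbours within 2 Mb that passed the threshold or flank the copies, list genes that passed, and the 5 most and 5 least correlated genes. Alternatives were pseudocounts of 5 and 0.1, no filter, a minimum mean of 100, recomputed size factors, no trend, the replicate number as a block, each library left out, both vehicle libraries numbered 2 left out, all P120 groups in 1 fit and, added after seeing the data, a correction in 100 bins of GC content and transcript length. Replicate numbers were not taken as pairs, since the labels do not tie them to litters or days and no comparison had all same-number residual correlations above 0.1 (range −0.30 to 0.41).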

Additional observations from a re-analysis of the deposited data

Results flagged for a closer look

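Within groups of 5 libraries, the gap of the highest or lowest library to its nearest neighbour was set against the group's whole range, with a limit of 0.71. Of 66 sets of values (7 copies, *Arid1b*, both family sums and the pseudogene share, in 6 groups), 8 passed it, where chance passes about 1 in 20.

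WT-Veh replicate 2 stood apart in 2 genes, with *Tmem181a* at 4297 normalized counts against 3505 to 3685 in the other 4 libraries, and *Arid1b* at 2320 against 3036 to 3229. HT-Veh replicate 3 stood apart in *Dynlt1b* (1399, against 534 to 776), in *Dynlt1f* (652, against 337 to 409) and in the *Dynlt1* sum (2654, against 1499 to 1729). Among P10 WT libraries, *Tmem181b-ps* was low in replicate 1 (4871, against 5062 to 5086), *Tmem181c-ps* in replicate 3 (139, against 164 to 173) and *Arid1b* in replicate 5 (3164, against 3271 to 3309).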

How the results depend on the processing

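Whole reads could not be recovered, so counting error is not covered and low copies such as *Dynlt1c* and *Tmem181c-ps* are the least certain. Between HT-Flx and WT-Flx, genotype and GC slope cannot be told apart, and sharing of sequence limits every single copy. Of the tested values of single copies and *Arid1b* under alternatives other than leaving out a library, 268 kept their direction and side of the threshold, 11 lost a call, 3 gained one and 13 changed sign. Of the 140 values at P10 and in the vehicle groups that were given without a test, 0 changed sign.

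Corrected for GC content and length, and with the replicate block added, the count of genes called between HT-Flx and WT-Flx was 6744 and 5603, that between HT-Flx and HT-Veh 0 and 4, and that of the interaction 0 and 0. The same correction, with or without the block, gave log2 differences of 0.0057 for *Dynlt1a* and 0.083 for *Dynlt1c* between HT-Flx and WT-Flx, −0.0097 for *Dynlt1c* between WT-Flx and WT-Veh, and 0.012 for *Dynlt1c* between ages in HT. Recomputed size factors gave −0.0018 for *Tmem181b-ps* between HT-Flx and HT-Veh and left *Tmem181c-ps* short of the threshold between HT-Flx and WT-Flx (adjusted p = 0.0588), as did all P120 groups in 1 fit (adjusted p = 0.0932). Without both vehicle libraries numbered 2, *Tmem181b-ps* differed by −0.066 (fluoxetine against vehicle, HT), 0.047 (the same, WT) and −0.14 (ages, WT), *Tmem181c-ps* by 0.028 between WT-Flx and WT-Veh, and the interaction called 0 genes. The cause of these changes was not tested.

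Replicate numbers were not taken as pairs. Same-number libraries were most alike between HT-Flx and HT-Veh (mean residual correlation 0.18, against −0.04 for other pairs), where 3 of 5 correlations passed 0.1 and 3 of 5 libraries correlated best with their own number. With the number as a block, 7 genes were called at P10, also after the correction, and 1355 between HT-Flx and HT-Veh. With this pairing, the difference in the *Tmem181* sum between HT-Flx and WT-Flx stayed at 0.30, and its exact p was 0.0625, the smallest that 5 pairs allow. Of the copies, *Dynlt1b* passed between HT-Flx and WT-Flx with the block (adjusted p = 0.0432), *Tmem181b-ps* did not between ages in HT (0.0549), and *Tmem181c-ps* passed between ages in WT with block and correction (0.0476).

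With each library left out in turn, the number of genes called was 3 to 8 at P10 (8 without P10 HT replicate 1), 0 to 1 for fluoxetine in HT, 0 to 1400 for fluoxetine in WT (1400 without WT-Veh replicate 1 and 624 without WT-Veh replicate 5) and 0 to 7667 in the interaction (7667 without HT-Veh replicate 1, and 0 without any of 8 others, among them WT-Veh replicate 2). The log2 differences that changed sign ran from −0.10 to 0.022 for *Dynlt1c* and −0.070 to 0.067 for *Dynlt1f* at P10 (given without a test), from −0.40 to 0.0044 for *Dynlt1c* and −0.0061 to 0.21 for *Dynlt1f* between HT-Flx and WT-Flx, from −0.066 to 0.096 for *Tmem181b-ps* between HT-Flx and HT-Veh, from −0.19 to 0.047 for *Tmem181b-ps*, −0.21 to 0.028 for *Tmem181c-ps* and −0.014 to 0.20 for *Dynlt1c* between WT-Flx and WT-Veh, and from −0.14 to 0.096 for *Tmem181b-ps* between ages in WT. *Tmem181c-ps* passed between ages in WT without WT-Veh replicate 4 (adjusted p = 0.0487) and in HT without HT-Veh replicate 4 or 5 (0.0405 and 0.0465). The *Tmem181* sum kept its exact test's side of the threshold in all 10 such runs (log2 difference 0.28 to 0.31).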
